A study of Arabidopsis thaliana with 6 samples.

Results

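The photosynthetic apparatus of the chloroplast is built from proteins of 2 genomes, and the genes described here are the nuclear ones: 46 of the 37184 gene identifiers counted in Arabidopsis thaliana seedlings, chosen by identifier for their known products. They fall into 20 antenna genes (14 LHCB and 6 LHCA genes), 12 genes of photosystem I subunits (PSA), 10 genes of photosystem II subunits (PSB) and the 4 RBCS genes, which encode the small subunit of RuBisCO. RNA-seq was made from 14-day-old seedlings of wild-type Col-0 (WT, 3 libraries) and of nol12-4 (3 libraries), a single line with a T-DNA insertion in AtNOL12. This is the gene of a nucleolar protein whose part in rRNA maturation the study examined. The study probed AtNOL12 mRNA by northern blot before choosing this line. Both genotypes were in the Col-0 background, received no treatment and grew in long days on half-strength MS medium with sucrose, and RNA of whole seedlings was depleted of rRNA. The libraries are biological replicates by the study's methods, and no source used here gives the time of day at which each was collected.

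Chlorophyll a/b-binding proteins of the LHC family collect light. LHCB proteins serve mainly photosystem II, which splits water, and LHCA proteins serve photosystem I, which reduces ferredoxin. RuBisCO fixes carbon dioxide with a large subunit made in the plastid and a small subunit imported from the cytosol, and the reaction centres likewise join plastid-encoded cores with nuclear-encoded subunits. In leaves these nuclear genes are known as some of the most strongly transcribed ones, and many of them respond to light, sugar, plastid signals and the circadian clock.

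Counts on genes ran from 67444306 to 75001252 per library in WT and from 56627497 to 74162060 in nol12-4, and organelle genes took 47.0 to 56.6% of them. The values of a genotype are listed by replicate number (1, 2, 3), in this order throughout. AtNOL12 itself was counted 663, 642 and 894 times in WT and 1186, 770 and 2142 times in the libraries labelled nol12-4; this sum over all exons does not separate the sides of the insertion, so it does not check the labels, and nol12-4 below means the libraries so labelled. All 46 genes passed the filter on low counts, and the lowest count of any of them in any library was 204, so counting error was small beside the spread between libraries. They made up 3.77, 4.2 and 6.59% of the counts on nuclear genes in WT and 7.48, 9.83 and 6.36% in nol12-4. These groups overlapped, as WT replicate 3 lay above nol12-4 replicate 3. In bulk seedlings, a difference in the number of green cells and a difference in RNA per green cell cannot be told apart.

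WT replicate 3 stood apart from the other WT libraries in these genes, and the nol12-4 libraries also differed among themselves. Of the 46 genes, 35 were higher in WT replicate 3 than in both other WT libraries and 10 were lower than in both. Within nol12-4, 37 were highest in replicate 2 and 31 were lowest in replicate 3. Results are therefore given also with single libraries left out. Levels are CPM, each count being divided by the TMM-scaled size of its library, differences are log2 fold changes of nol12-4 against WT with their standard error (SE), and a gene was called where the p-value of edgeR's quasi-likelihood test, adjusted over all tested genes by the Benjamini-Hochberg method, was under 0.05.

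Upstream sequences of 5 genes that the results below contrast are printed first, since the members differed in size of change even within a gene family. Each is the 250 bases before the annotated start in the RefSeq annotation of TAIR10.1, on the strand of the gene and from 5′ to 3′, with capitals for a match to the G-box (CACGTG), the I-box core (GATAAG) or the CCA1-binding site (AAAAATCT) on either strand. LHCB1.1 and LHCB1.3 are neighbours on chromosome 1 with unequal changes, LHCB2.3 had the largest log2 fold change of all 46, PSAH2 the smallest p-value, and RBCS2B carried the most matches.
LHCB1.1 (chr1:10475970-10476219, minus strand): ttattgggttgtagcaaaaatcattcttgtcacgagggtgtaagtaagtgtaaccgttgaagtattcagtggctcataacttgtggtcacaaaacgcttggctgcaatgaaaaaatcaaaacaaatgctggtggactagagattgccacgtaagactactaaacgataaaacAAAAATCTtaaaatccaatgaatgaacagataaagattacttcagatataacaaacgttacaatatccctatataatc
LHCB1.3 (chr1:10477635-10477884, plus strand): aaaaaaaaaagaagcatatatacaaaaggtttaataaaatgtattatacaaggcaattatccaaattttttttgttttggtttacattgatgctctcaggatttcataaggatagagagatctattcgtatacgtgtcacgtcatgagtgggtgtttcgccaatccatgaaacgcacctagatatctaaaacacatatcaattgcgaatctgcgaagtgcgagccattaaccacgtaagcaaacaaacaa
LHCB2.3 (chr3:10255656-10255905, plus strand): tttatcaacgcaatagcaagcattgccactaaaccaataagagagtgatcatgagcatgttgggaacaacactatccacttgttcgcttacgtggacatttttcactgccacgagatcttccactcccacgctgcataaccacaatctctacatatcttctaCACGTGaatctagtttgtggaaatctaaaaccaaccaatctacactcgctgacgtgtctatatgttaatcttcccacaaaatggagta
PSAH2 (chr1:19454548-19454797, plus strand): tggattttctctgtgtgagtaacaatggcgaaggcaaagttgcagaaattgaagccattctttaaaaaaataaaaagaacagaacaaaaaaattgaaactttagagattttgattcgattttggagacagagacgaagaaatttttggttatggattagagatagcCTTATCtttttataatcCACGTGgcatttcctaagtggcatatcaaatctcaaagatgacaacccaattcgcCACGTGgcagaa
RBCS2B (chr5:15382072-15382321, minus strand): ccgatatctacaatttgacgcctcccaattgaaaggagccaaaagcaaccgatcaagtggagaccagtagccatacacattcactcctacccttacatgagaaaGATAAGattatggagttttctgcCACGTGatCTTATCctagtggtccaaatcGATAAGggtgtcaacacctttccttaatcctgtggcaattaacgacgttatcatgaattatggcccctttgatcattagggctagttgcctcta
The LHCB1.1 window held 1 CCA1-binding site and no G-box, the LHCB1.3 window none of these motifs, the LHCB2.3 window 1 G-box, the PSAH2 window 2 G-boxes and 1 I-box, and the RBCS2B window 1 G-box and 3 I-boxes. Over all 46 genes a G-box was found upstream of 9 (19.6%), against 6.49% of 27443 protein-coding genes. An I-box core was found upstream of 10 (21.7%, against 12.3% of all genes), a CCA1-binding site upstream of 5 (10.9%, against 6.69%) and the evening element (AAAATATCT) upstream of 1, LHCA5 (2.17%, against 2.36%). A match describes letters in this window and is not a binding site. The genes that DESeq2 called were LHCB2.3, LHCB6, PSAH2, PSAK, PSAO, PSBO2 and PSBS. Of these, LHCB2.3, LHCB6 and PSAH2 had a G-box, as did PSAE2, which was not called and had a log2 fold change of −0.03. PSAK had an I-box core, PSAO a CCA1-binding site, and PSBO2 and PSBS had no match at all. So few called genes cannot show whether a motif goes with a change, which was not tested.

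Over the whole set, 43 of the 46 genes had a higher estimate in nol12-4 and 3 a lower one, and their median was 0.63 on the log2 scale against −0.0091 for all 21705 tested genes, of which 49.0% had a higher estimate. None passed the edgeR test over all genes: 0 of 46 were called, where 0.226% of all genes were called higher and 0.0691% lower. The smallest adjusted p was 0.106 (PSAH2, edgeR quasi-likelihood test, Benjamini-Hochberg). Before adjustment, p was under 0.05 for 18 of the 46 (6 antenna, 5 photosystem I, 5 photosystem II and 2 RBCS genes), all of them higher, where 12.1% of all genes were higher and 7.91% lower. With the replicate number as a block the number was 13 (11.8% of all genes). DESeq2, the study's tool, called 7 of the 46 higher and 0 lower, where it called 6.2% of all genes higher and 3.21% lower. For 12 of the 46 genes no nol12-4 library overlapped with WT, all above WT, where 14.5% of all genes lay above and 11.6% below.

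**Figure D1:**
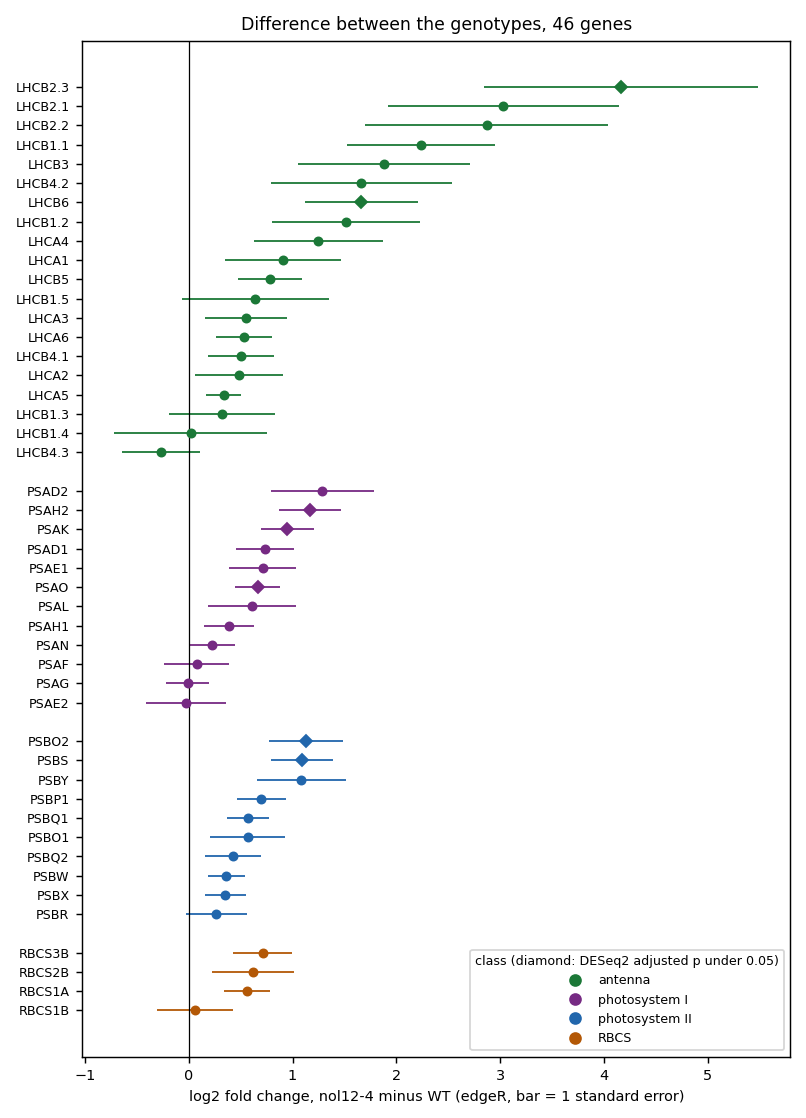
Log2 fold change of nol12-4 against WT for each of the 46 genes (x axis, log2 units; bars are 1 standard error of the edgeR estimate), one row per gene and coloured by class; diamonds are the 7 genes that DESeq2 called. The points run from −0.27 (LHCB4.3) to 4.16 (LHCB2.3), and the widest bars belong to LHCB genes.

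With all 6 libraries the antenna genes had the highest median of the 4 classes and the widest range of estimates. Their median log2 fold change was 0.85, made of 1.59 over the 14 LHCB genes and 0.54 over the 6 LHCA genes, and 19 of 20 estimates were higher in nol12-4. The summed level of the antenna genes was 5605, 6174 and 19348 CPM in WT and 17953, 28181 and 13400.0 CPM in nol12-4. WT replicate 3 thus lay above nol12-4 replicates 1 and 3, and the means of 10376 ± 7775 CPM in WT and 19845 ± 7570 in nol12-4 (SD, n = 3) differed by little more than either SD. Without WT replicate 3 the median of the antenna genes was 1.84, and 17 of the 20 were higher at an unadjusted p under 0.05 (12.6% of all genes were). In that comparison edgeR called LHCB1.2 and LHCA4 (0.812% of all genes) and DESeq2 called 17 antenna genes (6.76%). Without nol12-4 replicate 3, edgeR called LHCB2.3 of the antenna (4.71% of all genes) and DESeq2 LHCB2.3, LHCB5 and LHCB6 (8.52%). The antenna median was 1.06 without nol12-4 replicate 3 and 0.91 without nol12-4 replicate 1, and the omissions that follow lowered it. It was 0.57 without nol12-4 replicate 2, with 1 of the 20 genes higher at an unadjusted p under 0.05 (8.24% of all genes). It was 0.62 without WT replicate 1, with 2 genes higher (8.47%), and 0.67 without WT replicate 2, with 1 gene higher (10.5%), where the RBCS medians were above it, at 0.64 and 0.77.

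LHCB1 genes encode the main protein of the trimeric antenna of photosystem II. LHCB1.3 (AT1G29930), the antenna mRNA of highest level per length (2049 CPM per kb of exon in WT), had 1359, 1542 and 4662 CPM in WT and 2147, 4092 and 3199 in nol12-4. The highest of these 6 values was a WT library, the groups overlapped, and the log2 fold change was 0.32 (SE 0.51, adjusted p = 0.758, edgeR). LHCB1.1 (AT1G29920), its neighbour on the same chromosome, had 83, 176 and 549.6 CPM in WT and 1289, 1882 and 647 in nol12-4. Each nol12-4 library lay above each WT library, and the log2 fold change was 2.24 (SE 0.71, adjusted p = 0.154, edgeR).

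LHCB1.2 (AT1G29910) had 110.1, 142 and 687 CPM in WT and 796, 1309 and 576 CPM in nol12-4. LHCB1.5 (AT2G34420) had 517, 528 and 2854 CPM in WT and 1493, 3117 and 1464 in nol12-4. LHCB1.4 (AT2G34430) had 174, 149 and 1018 CPM in WT and 308, 658 and 394 in nol12-4. In all 3 genes the third WT library overlapped or exceeded nol12-4 libraries, and in LHCB1.4 it was the highest of the 6, with a log2 fold change of 0.02 (SE 0.74). Of the 50-base windows of these genes' exons, 10.6% (LHCB1.2) to 20.5% (LHCB1.1) also occur elsewhere in the genome, and read pairs aligned to several places were not counted, so the levels of genes with such windows are less certain. These were also LHCB2.1 (23.5%), LHCB2.2 (29.5%), LHCA2 (11.4%) and the RBCS genes of chromosome 5, while LHCB2.3, RBCS1A and the other members had none.

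The LHCB2 genes encode the other abundant protein of the same trimers, whose phosphorylation takes part in state transitions. LHCB2.1 (AT2G05100) had 23.8, 31.4 and 244 CPM in WT and 858, 1437 and 152 CPM in nol12-4. LHCB2.2 (AT2G05070) had 15.7, 19.4 and 185 CPM in WT and 583, 939 and 89.4 in nol12-4. LHCB2.3 (AT3G27690) had 2.87, 4.00 and 30.7 CPM in WT and 239, 417 and 17.9 in nol12-4. The order of the 6 libraries was the same for all 3: WT replicates 1 and 2 lowest, then nol12-4 replicate 3, then WT replicate 3, with nol12-4 replicates 1 and 2 far above. The highest library held 60.4, 59.9 and 145 times the lowest for LHCB2.1, LHCB2.2 and LHCB2.3. The log2 fold changes were 3.03 (SE 1.11), 2.87 (SE 1.17) and 4.16 (SE 1.32), with edgeR adjusted p of 0.196, 0.231 and 0.152. DESeq2 called LHCB2.3 (adjusted p = 0.0342). With both nol12-4 replicates 1 and 2 left out, its log2 fold change was 0.50.

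**Figure D2:**
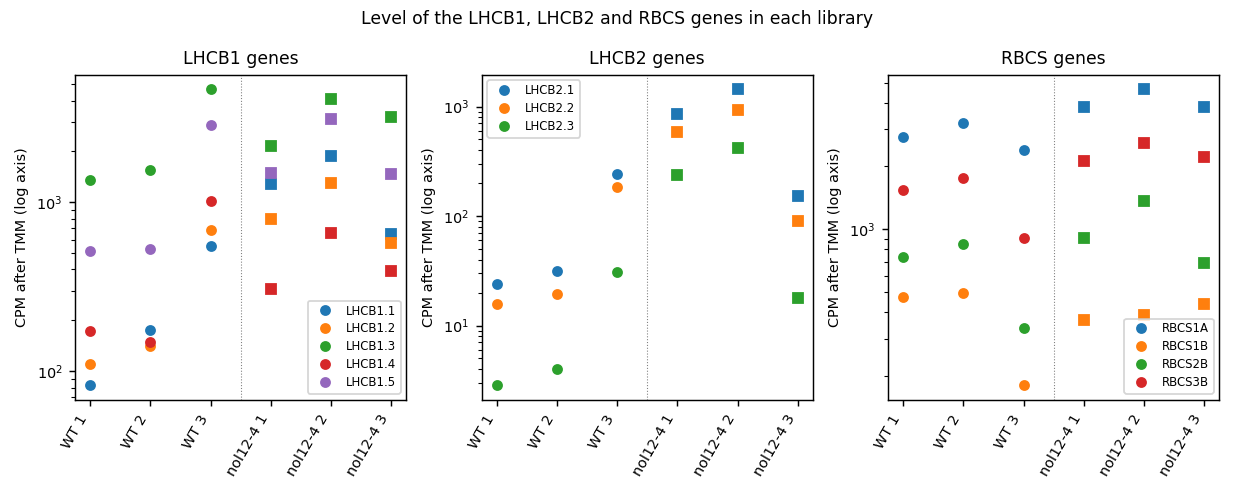
CPM after TMM scaling (log axis) of the 5 LHCB1 genes, the 3 LHCB2 genes and the 4 RBCS genes in each of the 6 libraries; circles are WT and squares nol12-4, and the dotted line parts the genotypes. WT replicate 3 is high in the LHCB panels and low in the RBCS panel, and nol12-4 replicate 3 is lowest of nol12-4 in the LHCB2 panel.

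LHCB3 (AT5G54270), the third subunit of the trimers, had a log2 fold change of 1.88 (SE 0.83) with overlapping groups. The monomeric antenna proteins that link the trimers to the core are encoded by LHCB4, LHCB5 (AT4G10340) and LHCB6 (AT1G15820) genes. LHCB6 had 112, 144 and 363 CPM in WT and 598, 1011 and 350.4 CPM in nol12-4. WT replicate 3 and nol12-4 replicate 3 had nearly the same level, the log2 fold change was 1.66 (SE 0.54, adjusted p = 0.161, edgeR), and DESeq2 called the gene (adjusted p = 0.0170). LHCB5 (0.78, SE 0.31) and LHCB4.2 (AT3G08940) (1.66, SE 0.87) were not called by either tool. LHCB4.1 (AT5G01530), at 0.51 (SE 0.32), had overlapping groups as well. LHCB4.3 (AT2G40100) had 13.4, 14.2 and 6.58 CPM in WT and 6.45, 13.9 and 8.04 in nol12-4. It was the only antenna gene with a lower estimate (−0.27, SE 0.37) and, at 7.86 CPM per kb in WT, had the lowest level per length of the antenna genes in WT, with LHCB2.3 (8.55) next.

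The 6 LHCA genes form the antenna belt of photosystem I, with LHCA5 (AT1G45474) and LHCA6 (AT1G19150) known as minor members that join the complex to the NDH complex. LHCA1 (AT3G54890) to LHCA4 (AT3G47470) were 2.38 to 4.12 times higher in WT replicate 3 than in the mean of the other WT libraries, whereas LHCA5 and LHCA6 were lower there, at 0.750 and 0.637 times. LHCA4 had 355, 433 and 1624 CPM in WT and 2039, 2583 and 1101 CPM in nol12-4, with overlap of the groups through replicate 3 of each. LHCA1, LHCA2 (AT3G61470) and LHCA3 (AT1G61520) stood at 0.91, 0.49 and 0.55 (SE 0.56, 0.42 and 0.39) and their groups overlapped too, with WT replicate 3 above nol12-4 replicates 1 and 3. LHCA5 had 44.4, 47.5 and 34.5 CPM in WT and 52.1, 58.9 and 48.5 in nol12-4. Its groups did not overlap, but the difference was small (log2 fold change 0.34, SE 0.17, adjusted p = 0.31, edgeR). None of the 6 was past an unadjusted p of 0.05.

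The median of the photosystem I subunit genes lay below that of the LHCB genes and above that of the LHCA genes. This median log2 fold change was 0.64 and 10 of 12 estimates were higher in nol12-4. DESeq2 called 3 of the genes higher, where it called 6.2% of all genes higher. The summed level was 2259, 2441 and 3848 CPM in WT and 4032, 4944 and 3449 CPM in nol12-4, so only the third WT library overlapped with nol12-4. Without WT replicate 3 the median was 0.92 and DESeq2 called 8 of the 12 (6.76% of all genes). Without nol12-4 replicate 2 it was 0.39 and DESeq2 called 0 (2.32%), and without WT replicate 1 it was 0.46.

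PSAH2 (AT1G52230) encodes a subunit at the side of photosystem I where mobile antenna trimers dock. It had 151, 168 and 154 CPM in WT and 475, 379.6 and 206 CPM in nol12-4, so WT was tight and each nol12-4 library lay above it. The log2 fold change was 1.17 (SE 0.30, adjusted p = 0.106, edgeR; DESeq2 adjusted p = 0.0056). PSAK (AT1G30380), whose product helps bind LHCA proteins, had 188, 215 and 309 CPM in WT and 430.5, 563 and 381 in nol12-4, again without overlap (0.95, SE 0.26, adjusted p = 0.114, edgeR; DESeq2 0.0115). PSAO (AT1G08380), another subunit of the docking side, had 264, 298 and 414 CPM in WT and 548, 506 and 494 in nol12-4 (0.66, SE 0.22, adjusted p = 0.162, edgeR; DESeq2 0.0475). These 3 were the photosystem I genes that DESeq2 called. They were also the only ones of the class whose groups did not overlap, where 14.5% of all genes lay above WT in this way.

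PSAD and PSAE proteins form the stromal ridge where ferredoxin is reduced. PSAD2 (AT1G03130) had the highest estimate of the class, with 52.1, 59.1 and 150.3 CPM in WT and 256, 271 and 111 CPM in nol12-4 (1.29, SE 0.50, adjusted p = 0.212, edgeR). PSAE2 (AT2G20260) had the lowest, with 78.8, 84.7 and 186 CPM in WT and 73.9, 137 and 132 in nol12-4 (−0.03, SE 0.39), although its paralog PSAE1 (AT4G28750) stood at 0.71 (SE 0.33). PSAN (AT5G64040), a lumenal subunit, had 370.1, 420.5 and 461 CPM in WT and 564, 533 and 367 in nol12-4 (0.23, SE 0.22). PSAF (AT1G31330), the subunit to which plastocyanin binds, and PSAG (AT1G55670), a partner of PSAK at the antenna side, stood at 0.08 (SE 0.31) and −0.01 (SE 0.21). PSAD1 (AT4G02770), PSAH1 (AT3G16140) and PSAL (AT4G12800), the last a partner of PSAH at the docking side, stood at 0.74, 0.39 and 0.61 (SE 0.28, 0.24 and 0.42), each with overlapping groups. The signs of PSAE2, PSAF and PSAG changed when single libraries were left out.

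All 10 photosystem II subunit genes had a higher estimate in nol12-4 (median 0.57 on the log2 scale), and the groups did not overlap for 5 of them (PSBO2 (AT3G50820), PSBP1 (AT1G06680), PSBQ1 (AT4G21280), PSBS (AT1G44575) and PSBW), where 14.5% of all genes lay above WT in this way. The summed level was 3958, 4309 and 5612 CPM in WT and 5947, 8315 and 5762 CPM in nol12-4, and the nol12-4 libraries all lay above WT, the lowest of them by a narrow margin. PSBS, the sensor that switches the antenna to heat dissipation, had 214, 252 and 148 CPM in WT and 453, 554 and 298 in nol12-4. WT replicate 3 was the lowest library here, unlike in most LHCB genes, and the log2 fold change was 1.09 (SE 0.30, adjusted p = 0.116, edgeR; DESeq2 adjusted p = 0.00897).

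PSBO, PSBP and PSBQ proteins stabilise the manganese cluster that oxidises water. PSBO1 (AT5G66570) had 686, 738 and 1344 CPM in WT and 987, 1910.5 and 1202 CPM in nol12-4, with overlap (0.57, SE 0.36). Its paralog PSBO2 had 147, 158 and 196 CPM in WT and 270.3, 582 and 245 in nol12-4, without overlap (1.13, SE 0.35, adjusted p = 0.148, edgeR; DESeq2 0.0262). Without nol12-4 replicate 2 the estimate of PSBO2 was 0.62, and DESeq2 then called 0 of the 46 genes (2.32% of all genes were called higher), with 9 higher at an unadjusted p under 0.05 (7.48% of all genes). PSBP1 and PSBQ1 stood at 0.70 and 0.57 (SE 0.24 and 0.21), and PSBQ2 (AT4G05180), whose groups overlapped, at 0.43 (SE 0.27). PSBR (AT1G79040), a small subunit near that site, had the highest level per length of the class in WT (1294 CPM per kb of exon) and the smallest difference, with 819.9, 867 and 1358 CPM in WT and 906, 1520.3 and 1233 in nol12-4 (0.27, SE 0.29). The small membrane subunits PSBW (AT2G30570), PSBX (AT2G06520) and PSBY (AT1G67740) stood at 0.36, 0.35 and 1.09 (SE 0.18, 0.20 and 0.43).

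The 4 RBCS genes behaved differently from the antenna in WT. Each of them was lower in WT replicate 3 than in both other WT libraries, where 17 of the 20 antenna genes were higher. RBCS1A (AT1G67090), at 2190.1 CPM per kb of exon in WT the highest level per length of all 46, had 2739, 3209 and 2383 CPM in WT and 3816, 4643 and 3812 CPM in nol12-4. The groups did not overlap, and the log2 fold change was 0.56 (SE 0.22, adjusted p = 0.22, edgeR; DESeq2 0.0519). RBCS3B (AT5G38410) had 1544, 1755 and 911 CPM in WT and 2115, 2568 and 2205 in nol12-4, also without overlap (0.71, SE 0.28, adjusted p = 0.221, edgeR; DESeq2 0.0873).

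RBCS1B (AT5G38430), RBCS2B (AT5G38420) and RBCS3B lie in tandem on chromosome 5, apart from RBCS1A on chromosome 1. RBCS2B had 735, 851 and 336 CPM in WT and 908, 1354 and 688 CPM in nol12-4 (0.62, SE 0.40). RBCS1B had 473, 494 and 181 CPM in WT and 366, 389 and 440.1 in nol12-4 (0.06, SE 0.37), and WT replicates 1 and 2 lay above all nol12-4 libraries. The summed RBCS level was 5490, 6308 and 3811 CPM in WT and 7205, 8954 and 7145 CPM in nol12-4, without overlap, a mean of 5203 ± 1273 CPM against 7768 ± 1028 (SD, n = 3). The RBCS class had a median log2 fold change of 0.59, and 0.38 without WT replicate 3, the only one of the 4 classes in which leaving out that library lowered the median. It was 0.39 without nol12-4 replicate 2. Shared windows made up 12.0% of RBCS1B, 16.9% of RBCS2B and 16.5% of RBCS3B.

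**Figure D3:**
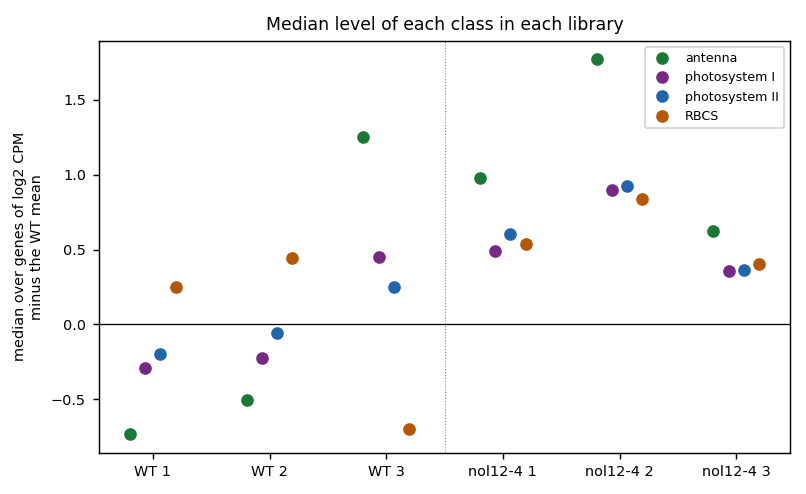
Median over the genes of each class of log2 CPM minus the WT mean (y axis, log2 units) in each of the 6 libraries; points are the 4 classes and the dotted line parts the genotypes. In WT replicate 3 the antenna stands at 1.25 and RBCS at −0.70, while in the nol12-4 libraries all 4 classes lie above 0, from 0.35 to 1.77.

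The balance between the classes was set out as shares of the counts of the 46 genes. The antenna held 32.4, 32.1 and 59.3% in WT and 51.1, 55.9 and 45.0% in nol12-4. RBCS held 31.7, 32.8 and 11.7% in WT and 20.5, 17.8 and 24.0% in nol12-4. The ratio of antenna to RBCS counts, not corrected for gene length, was therefore 1.02, 0.979 and 5.08 in WT and 2.49, 3.15 and 1.88 in nol12-4, so the 3 WT libraries enclosed all nol12-4 libraries. The shares of photosystem I (9.81 to 13.1%) and photosystem II (16.5 to 22.9%) varied less over the 6 libraries.

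Within families, the share of each paralog does not depend on how libraries are scaled. LHCB1.1 held 3.70, 6.94 and 5.62% of the LHCB1 counts in WT and 21.4, 17.0 and 10.3% in nol12-4, and LHCB1.2 held 4.91, 5.58 and 7.04% against 13.2, 11.8 and 9.17%. Both shares were higher in each nol12-4 library than in each WT library, WT replicate 3 included. LHCB1.3 went from 56.4 ± 7.49% to 41.2 ± 8.48% (SD, n = 3) with overlap. PSAE1 likewise held 69.9, 68.2 and 66.0% of the PSAE counts in WT and 81.8, 78.6 and 72.6% in nol12-4. RBCS3B held 28.1, 27.8 and 23.9% of the RBCS counts in WT and 29.4, 28.7 and 30.9% in nol12-4, a difference of a few points without overlap, and LHCB2.2 lay slightly lower in nol12-4 (37.6 ± 2.48% against 34.3 ± 0.558%). Shares were not tested.

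Other paralog shares followed the libraries more than the genotypes. LHCB4.2 held 12.5, 10.3 and 34.4% of the LHCB4 counts in WT and 48.1, 46.1 and 22.3% in nol12-4. LHCB2.3 held 6.79, 7.30 and 6.68% of the LHCB2 counts in WT and 14.2, 14.9 and 6.91% in nol12-4, so nol12-4 replicate 3 was at the WT level. PSAH2 held 59.7, 63.4 and 48.3% of the PSAH counts in WT and 76.2, 67.8 and 58.6% in nol12-4, with overlap. The PSAD, PSBO and PSBQ shares and the RBCS1A, RBCS1B and RBCS2B shares overlapped between the genotypes as well.

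**Figure D4:**
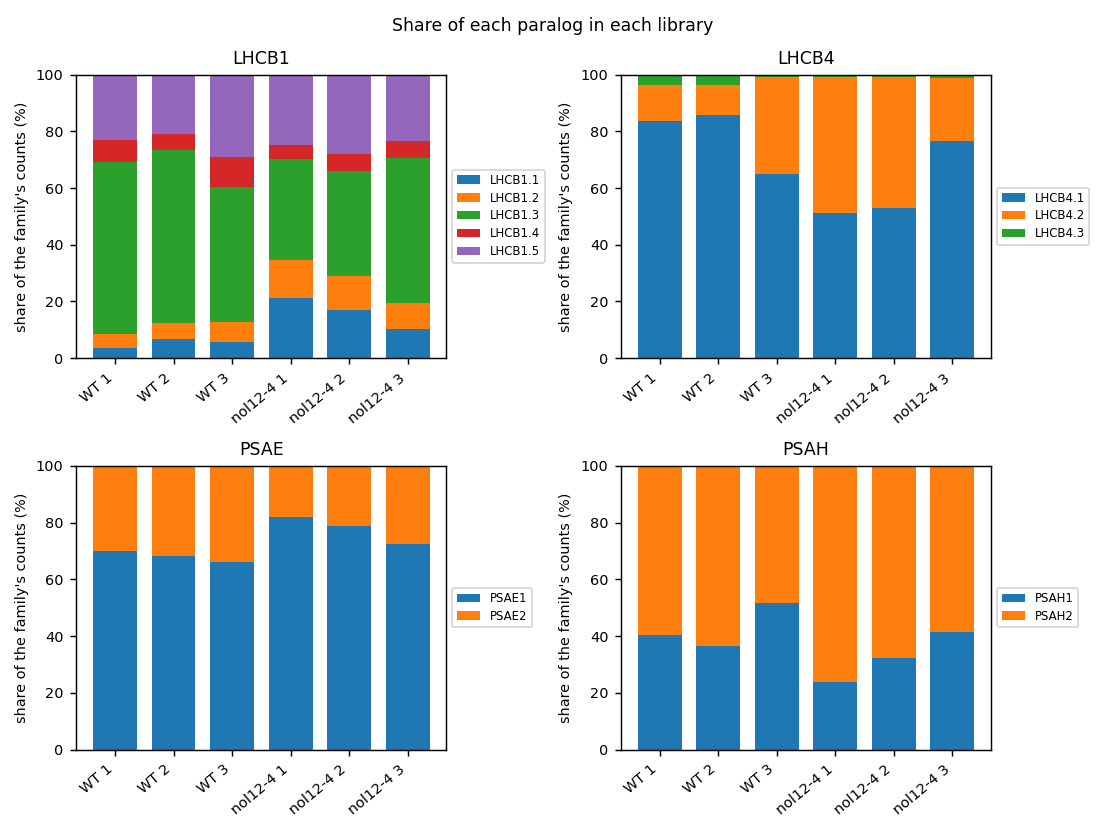
Share of each paralog in the counts of its family (y axis, %) in each of the 6 libraries, as stacked bars for LHCB1, LHCB4, PSAE and PSAH. The LHCB1.1 and LHCB1.2 shares are larger in all nol12-4 libraries, whereas the LHCB4.2 share is large in WT replicate 3 and in nol12-4 replicates 1 and 2.

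The plastid-encoded partners of these proteins were read as a list. Of 7 such genes (PSAA, PSAB, PSBA, PSBB, PSBC, PSBD and RBCL), 6 had a lower estimate in nol12-4 (median −0.35 on the log2 scale). None was called by edgeR or DESeq2, with 0 past an unadjusted p of 0.05 by edgeR. For 3 of the 7 each nol12-4 library lay below each WT library, where 11.6% of all genes did. The summed level of the 7 was 424675, 406971 and 371177 CPM in WT and 350231, 323780 and 330541 in nol12-4, without overlap. RBCL, the large subunit of RuBisCO, had 87632, 97020 and 81635 CPM in WT and 93655, 95605 and 92655 in nol12-4 (0.08, SE 0.22), whereas the summed RBCS level was higher in each nol12-4 library. PSBD, a core protein of photosystem II, had 6706, 6732 and 7702 CPM in WT and 5325, 5844 and 3956 in nol12-4 (−0.48, SE 0.24, adjusted p = 0.302, edgeR). Plastid and nuclear genes were scaled together in these values.

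Chlorophyll synthesis genes were read as a list of 21, of which 18 had a higher estimate in nol12-4, with a median of 0.40. DESeq2 called 4 higher and 0 lower, where it called 6.2% of all genes higher and 3.21% lower. edgeR called 0, where it called 0.226% of all genes higher and 0.0691% lower. Before adjustment (p under 0.05) 7 lay higher and 0 lower, where 12.1% of all genes were higher and 7.91% lower. CHLH, a subunit of magnesium chelatase, had 361, 527 and 583 CPM in WT and 1454, 2177 and 687 in nol12-4 (1.55, SE 0.42, adjusted p = 0.116, edgeR; DESeq2 0.00402). CAO, which makes the chlorophyll b of the antenna, had 23.4, 21.0 and 54.2 CPM in WT and 233, 221 and 35.7 in nol12-4 (2.31, SE 0.70; DESeq2 adjusted p = 0.00421). GUN4, an activator of the chelatase, had 5.92, 4.61 and 11.3 CPM in WT and 40.4, 51.0 and 6.78 in nol12-4 (2.17, SE 0.70; DESeq2 0.0093). In CAO and GUN4 the difference lay in nol12-4 replicates 1 and 2, and nol12-4 replicate 3 was below WT replicate 3.

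Of 17 genes of the Calvin-Benson cycle, 13 had a higher estimate, with a median of 0.42. DESeq2 called 4 higher and 0 lower, where it called 6.2% of all genes higher and 3.21% lower. edgeR called 0. Before adjustment (p under 0.05) 6 lay higher and 0 lower, where 12.1% of all genes were higher and 7.91% lower. RCA, the activase that frees RuBisCO of inhibitory sugar phosphates, had 916, 910.3 and 969 CPM in WT and 1994, 3707 and 1182 in nol12-4 (1.3, SE 0.40, adjusted p = 0.144, edgeR; DESeq2 0.0142). FBA1 and FBA2, plastid aldolases, stood at 2.01 (SE 0.44, edgeR adjusted p = 0.0829, DESeq2 0.000142) and 1.29 (SE 0.34, edgeR 0.107, DESeq2 0.00424). In RCA, FBA1 and FBA2 the WT libraries were level, WT replicate 3 included, and each nol12-4 library lay above them.

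In the 4 lists of this paragraph DESeq2 called 0 to 2 genes each, all higher, where it called 6.2% of all genes higher and 3.21% lower. Of 13 nuclear genes of electron transport and the ATP synthase, DESeq2 called FD1, a leaf ferredoxin (1.06, SE 0.32), and PGRL1A, of cyclic electron flow (0.71, SE 0.22). Of 8 stress-induced LHC-like genes it called ELIP1 (2.00, SE 0.61) and ELIP2 (2.95, SE 0.86), and of 8 genes of RuBisCO assembly CPN60A1, a chaperonin subunit (0.65, SE 0.20). It called 0 of 11 genes for antenna insertion and state transitions, whose median was 0.16. Among them TAP38, the phosphatase that dephosphorylates the antenna trimers, had 80.9, 80.8 and 91.2 CPM in WT and 43.3, 51.4 and 77.3 in nol12-4 (−0.56, SE 0.23). edgeR called 0 genes in these 4 lists. At an unadjusted p under 0.05 it had 5, 3, 1 and 4 higher and 1, 0, 0 and 1 lower, in the order given. Of all genes 12.1% were higher and 7.91% lower in this way.

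Of 17 regulators of photosynthesis genes, 16 were tested, 10 had a higher estimate, and the median was 0.13. PIF3, a repressor of chlorophyll and photosynthesis genes in the dark, had 52.6, 44.7 and 45.7 CPM in WT and 27.1, 27.7 and 26.0 in nol12-4. The libraries were tight within each genotype and did not overlap, and the log2 fold change was −0.82 (SE 0.13, adjusted p = 0.061, edgeR; DESeq2 1.67e-05). SIG5, a sigma factor of plastid transcription, had 17.7, 20.2 and 12.3 CPM in WT and 107, 93.2 and 12.4 in nol12-4 (2.08, SE 0.69; DESeq2 adjusted p = 0.011), with nol12-4 replicate 3 at the WT level. DESeq2 called these 2 of the list, where it called 6.2% of all genes higher and 3.21% lower. edgeR called 0, with 2 higher and 1 lower before adjustment (p under 0.05). Those numbers were near the shares of all genes, 12.1% higher and 7.91% lower. ABI4 had no count in any library.

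Of 11 clock genes, 5 had a higher and 6 a lower estimate in nol12-4, edgeR called 0 (4 lay higher and 0 lower before adjustment) and DESeq2 called 4 higher and 0 lower. Their summed level ran from 333 to 592 CPM in WT and from 353 to 366 in nol12-4. Several of them separated nol12-4 replicates 1 and 2 from the other 4 libraries. LHY, a morning gene of the clock, had 1.13, 1.24 and 1.06 CPM in WT and 58.6, 49.5 and 0.970 in nol12-4. CCA1, its partner, had 1.1, 1.53 and 3.52 CPM in WT and 96.8, 94.1 and 2.44 in nol12-4. PRR9 had 0.859, 0.374 and 1.91 CPM in WT and 23.1, 29.6 and 0.776 in nol12-4. The evening gene TOC1, named after its values were seen, had 130.1, 126 and 141 CPM in WT and 14.7, 13.1 and 119.6 in nol12-4. The same 2 nol12-4 libraries had the highest levels of the LHCB2 genes, LHCB3, LHCB6, CAO and GUN4. This did not hold throughout: both lay above all WT libraries in 11 of the 20 antenna genes, and LHCB1.3 and LHCB1.4 were highest in WT replicate 3. With nol12-4 replicates 1 and 2 both left out, the class medians were 0.34 for antenna, 0.30 for photosystem I, 0.33 for photosystem II and 0.33 for RBCS. That setting was chosen after seeing the data and leaves 1 nol12-4 library, so only estimates are given. The clock genes' part in the differences of the 46 genes was not tested.

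**Figure D5:**
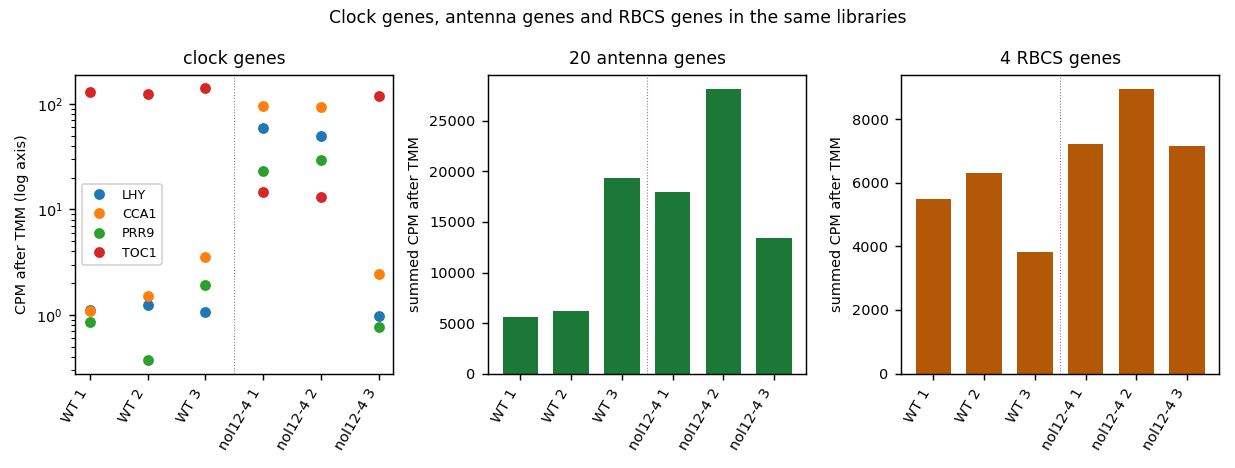
Left, CPM (log axis) of LHY, CCA1, PRR9 and TOC1 in each of the 6 libraries; middle and right, summed CPM of the 20 antenna and the 4 RBCS genes in the same libraries (bars from 0). The clock genes part nol12-4 replicates 1 and 2 from the rest, while the antenna is also high in WT replicate 3, at 19348 CPM.

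Markers of other tissues were read beside these values. Of 16 root markers 15 were tested and 14 had a higher estimate in nol12-4, with a median of 0.86. DESeq2 called 6 higher, where it called 6.2% of all genes higher and 3.21% lower. edgeR called 0, with 8 higher and 0 lower before adjustment (p under 0.05), where 12.1% of all genes were higher and 7.91% lower. For 11 of the 15, each nol12-4 library lay above each WT library, where 14.5% of all genes did. The summed level of the root markers was 37.5 to 69.9 CPM in WT and 64.3 to 85.8 in nol12-4. It was lowest in WT replicate 3, and NRT2.1 was at 0 in WT replicate 1. IRT1, the iron transporter of the root epidermis, had 0.493, 1.44 and 0.209 CPM in WT and 7.04, 6.70 and 9.61 in nol12-4. Of 6 epidermis and guard cell markers 3 had a higher and 3 a lower estimate. DESeq2 called PDF1, of the epidermis, higher (1.26, SE 0.40, adjusted p = 0.0369) and the guard cell genes MYB60 and FAMA lower (−0.73, SE 0.16, and −0.88, SE 0.20; DESeq2 adjusted p = 0.00202 and 0.00448), and the summed level of the 6 overlapped (210 to 287 CPM in WT and 211 to 318 in nol12-4). The 2 phloem markers summed to 51.1 to 53.5 CPM in WT and 40.2 to 49.5 in nol12-4. Of the 4 senescence markers SAG12 had no count in any library, SAG13 and SGR1 had higher estimates (0.84, SE 0.97, and 0.26, SE 0.26), and ORE1 had a lower one (−0.95, SE 0.18; DESeq2 adjusted p = 0.000378). The part of tissue composition in the differences of the 46 genes was not tested.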

How the data were processed

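Per the labels and the study's methods, the authors sequenced rRNA-depleted stranded libraries as read pairs, aligned them to TAIR10 (HISAT2, version 2.0.4) and used HTSeq (version 0.6.0) to count pairs on Araport11 genes. The deposited values are raw counts per gene, without normalization. Summary lines, 20.6 to 25.0% of read pairs per library, include pairs aligned to several places and were left out.

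Counts were analysed with edgeR (version 4.0.16, in R version 4.3.3). filterByExpr kept 21705 genes, TMM factors scaled the libraries, and glmQLFit with robust estimation and the two-sided quasi-likelihood F test compared the genotypes, with Benjamini-Hochberg adjustment over all tested genes and a threshold of 0.05. The SE is the log2 fold change divided by the square root of F. log2 CPM used a prior count of 2. DESeq2 (version 1.42.0) was an alternative, as were other scalings, no filter, organelle genes left out, a replicate block and leaving out each library. Scripts were tested on simulated data. Replicate pairs differed by more than sampling noise (chi-square per gene of at least 27.4). CPM per kb used RefSeq exon lengths of TAIR10.1, whose nuclear chromosomes match TAIR10.

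The members and lists were chosen with earlier results of these data known. Library values are given for LHCB1, LHCB2 and RBCS genes, for the highest mean CPM and the highest and lowest log2 fold change of a class, and for genes either tool called. Up to 3 genes of each other list are named, called ones first.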

Additional observations from a re-analysis of the deposited data

How the results depend on the processing

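Leaving out each library in turn and changing the tool both moved the counts by over 1.5 times. Without 1 library edgeR called 0 to 1038 genes higher and 0 to 601 lower, and DESeq2 554 to 1993 higher and 201 to 1574 lower. Of the 46 genes edgeR called 0 to 3 higher (0 to 4.71% of all genes) and DESeq2 0 to 32 (2.32 to 8.52%). At an unadjusted p under 0.05 edgeR had 6 to 32 higher (8.24 to 13.7% of all genes) and DESeq2 9 to 36 (7.48 to 12.1%). The edgeR calls were LHCB1.2 and LHCA4 without WT replicate 3 (0.812% of all genes were called higher there). Without nol12-4 replicate 3 they were LHCB2.3, PSAH2 and PSBS (4.71%), and there were 0 without any other library. The DESeq2 number was 32 without WT replicate 3 (6.76% of all genes), 13 without nol12-4 replicate 3 (8.52%) and 0 to 4 without another. 5 genes of small change turned sign in some of these fits: LHCB1.4 (−0.41 to 1.49), PSAE2 (−0.26 to 0.48), PSAF (−0.14 to 0.45), PSAG (−0.14 to 0.19) and RBCS1B (−0.28 to 0.28). The median of chlorophyll synthesis genes ran from 0.35 to 0.59 and that of clock genes from −0.96 to −0.22.

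With all 6 libraries, DESeq2 called 1498 genes higher and 776 lower, with 7 of the 46 higher. Library size alone gave 376 and 51 genes, with PSAE2 at 0.073 and PSAG at 0.088 and the median of all genes at 0.092, and no filter on low counts gave 142 and 41. For the edgeR fit with both nol12-4 replicates 1 and 2 left out, only estimates are given. This setting was chosen after seeing the data, leaves 1 nol12-4 library and takes its spread from WT. There the medians were 0.18 for chlorophyll synthesis, −0.24 for clock genes and −0.40 for regulators, and the log2 fold change was −0.20 for LHCB1.4, 0.17 for PSAE2, −0.070 for PSAF, 0.096 for PSAG, −0.19 for PSAN, −0.11 for GUN4, −0.43 for SIG5, −0.24 for LHY and −0.44 for PRR9. DESeq2 without each library was also added after seeing the data. Median-of-ratios factors and leaving out organelle genes changed no class median by more than the spread between replicates. The causes of these changes were not tested.

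No pairing of the libraries by the replicate numbers of the labels was visible. Deviations of the same-numbered libraries from their group means correlated at 0.16, −0.11 and 0.035, and those of differently numbered ones at −0.24 to 0.20. With 3 libraries per genotype these values cannot exclude a pairing. With the replicate block edgeR called 1 gene higher and 0 lower, 0 of the 46, and 13 of the 46 were higher at an unadjusted p under 0.05 (11.8% of all genes), with PSAE2 at 0.034 and PSAG at 0.0095. Each of the 46 genes had 204 or more counts in each library, so counting error was small beside the spread between libraries.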
